A study of Mus musculus with 31 samples.

Results

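Thymic tumors from mice labelled homozygous mutant for NDR1 (KO, genotype NDR1-/-) were compared with thymic tumors from mice labelled heterozygous (HT, genotype NDR1+/-), across all genes on Affymetrix mouse expression arrays. The samples were chosen by their titles, which give 7 KO and 7 HT tumors, 14 of the 31 arrays of the series. All mice were of the C57BL/6 strain, and every tumor followed treatment with N-ethyl-N-nitrosourea (ENU), an alkylating mutagen, at 100 mg/kg. Tumors were taken when they appeared or at 9 months after treatment at the latest, and were flash frozen. Each group held 6 female tumors and 1 male tumor (HT tumor 4 and KO tumor 2). Of the other arrays, 4 KO, 4 HT and 4 NDR1+/+ (WT) thymi of untreated mice serve here for comparison. List means given for untreated thymi cover all of these. A further 5 tumors of WT mice share the estimate of the spread, and their values are given beside those of some genes. The age at treatment, the construction of the NDR1 allele, and the animal behind each array are not stated in the labels, so p-values measure only the spread between these samples. With 7 arrays a group, precision is limited by their number.

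NDR1 is a serine/threonine kinase of the AGC family, encoded by Stk38. It is activated by MOB proteins and by kinases of the MST family, which also act upstream of LATS kinases in the Hippo pathway, and its closest relative is NDR2, encoded by Stk38l. NDR kinases are known for roles in apoptosis, centrosome duplication and cell cycle progression, and loss of NDR1 in mice is known to predispose to T cell lymphoma, with the pro-apoptotic protein BIM (Bcl2l11) studied in that setting. ENU-induced thymic tumors are generally lymphomas of immature T cells. All values below are log2(intensity + 1) per gene, and a difference is the KO mean minus the HT mean on that scale.

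No gene separated the KO tumors from the HT tumors at an adjusted p under 0.05. The count was 0 of 13644 genes tested (0%) by limma with sex as a covariate and Benjamini-Hochberg adjustment. At an unadjusted p under 0.05 the same fit gave 150 genes (1.1%), of which 87 were higher in KO tumors (0.638%) and 63 were lower (0.462%). When the tumor arrays were quantile normalized again, the split was 72 higher and 84 lower, so the lean to higher values depended on that scaling. The count was 229 without HT tumor 7, 260 without HT tumor 5, 271 without KO tumor 5 and 305 without KO tumor 1. Over all genes tested, 54.5% of differences were positive and 45.5% negative, with a median of 0.03. The values of the 7 KO tumors and the 7 HT tumors did not overlap for 1 gene that was higher in KO (0.00733%) and for 0 genes that were lower (0%).

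The gene without overlap, named after its values were seen, was Iars, the cytosolic isoleucyl-tRNA synthetase. Its lowest, median and highest values were 10.77, 11.06 and 11.62 in KO tumors, against 10.50, 10.69 and 10.77 in HT tumors. The gap between the groups was narrow: the lowest KO value and the highest HT value are the same at 2 decimals. The difference was 0.43 (SE 0.159), with an adjusted p of 0.9998 by limma, and a second Iars probe set differed by 0.17.

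The arrays did not group by genotype. For 12 of the 14 tumors the most similar array was of the other genotype, and for 2 it was of the same genotype. The median Pearson correlation was 0.865 over the 21 pairs of KO tumors, 0.883 over the 21 pairs of HT tumors and 0.889 over the 49 mixed pairs. Mixed pairs were thus no less alike than pairs of 1 genotype, by these medians, which share arrays. HT tumors 1 and 3 and KO tumors 4 and 6 stood apart by their B cell genes. Their mean over 13 B cell and plasma cell markers was 12.85, 11.77, 12.91 and 12.97, and in the other 10 tumors it was between 5.24 and 10.38. In bulk RNA, fewer cells of a type and less RNA per cell cannot be told apart.

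**Figure D1:**
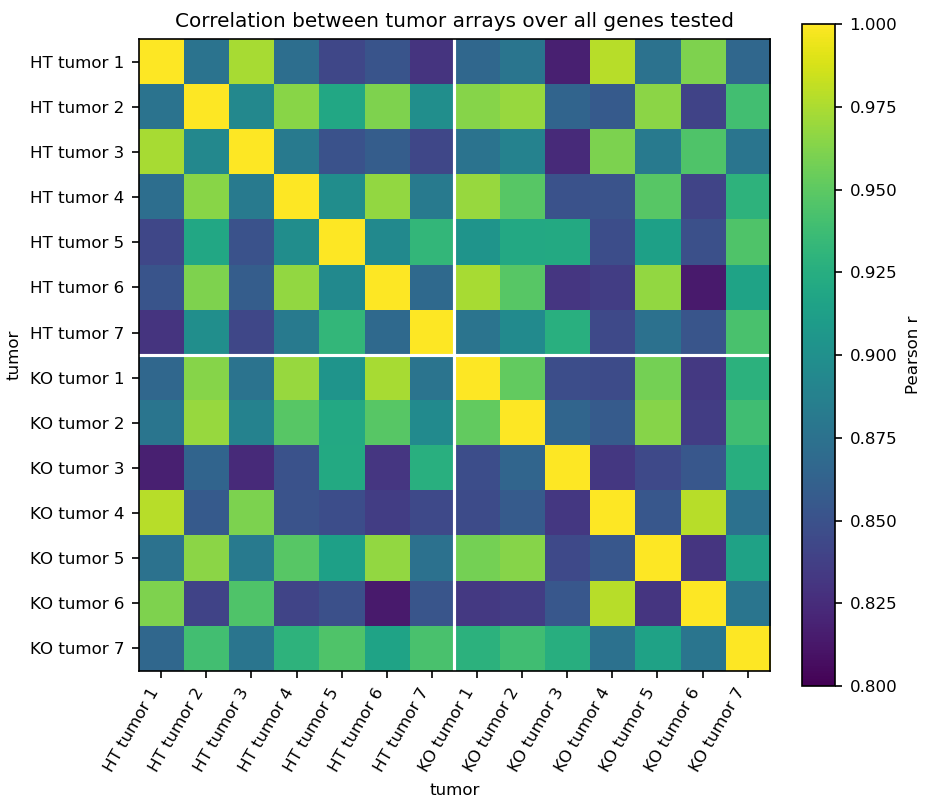
Pearson correlation between the 14 tumor arrays over the genes tested, with HT tumors 1 to 7 followed by KO tumors 1 to 7 on both axes and a white line between the genotypes. HT tumors 1 and 3 and KO tumors 4 and 6 form a block across the line, and the brightest cell off the diagonal is 0.979, between HT tumor 1 and KO tumor 4.

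RNA quality also varied among the tumors. The measure was a 3' to 5' ratio on the log2 scale. It was the log2 signal of the 3' probe set minus that of the 5' probe set, averaged over actin and Gapdh. All ratios given here, with the cutoff of 1.5, are thus log2 differences. A high ratio marks broken RNA. This ratio was between 0.185 and 3.17 in KO tumors (median 1.07) and between 0.189 and 4.87 in HT tumors (median 0.713), and between 0.261 and 0.384 in the KO and HT thymi. The groups overlapped widely (2-sided exact permutation test, p = 0.954). Tumors above 1.5 were HT tumors 5 and 7 and KO tumors 3, 6 and 7, and list medians without them are given below where they change sign, as they did for 16 of 38 gene and marker lists. With the ratio as a covariate and all 14 tumors kept, the median changed sign for 0 of the 38 lists. The mean ratio was 1.41 in KO and 1.37 in HT tumors. In this and the later fits the covariate could thus hardly move a KO minus HT difference, whatever the part of RNA quality. That part in the turns below was not tested. The Y-linked genes Kdm5d and Uty matched the sex on the labels in every tumor.

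Stk38 did not mark the genotype of the tumors. Its values in HT tumors 1 to 7 were 12.14, 11.12, 12.10, 11.22, 12.35, 10.71 and 12.77, and in KO tumors 1 to 7 they were 9.22, 8.73, 12.84, 12.77, 9.52, 13.08 and 11.47. KO tumors 1, 2 and 5 lay below every HT tumor, whereas KO tumors 3, 4 and 6 lay above every HT tumor. The difference was -0.68 (SE 0.615), and a 2-sided exact permutation test gave p = 0.381. KO tumors 4 and 6, which had high Stk38 values, were also the KO tumors richest in B cell markers; the part of other cells in the Stk38 signal was not tested. Without the 4 tumors rich in B cell markers the difference was -1.28. The other Stk38 probe sets differed by 0.39 and -0.36, and their place relative to the altered part of the gene is not stated in the labels. In untreated KO thymi Stk38 was between 10.64 and 11.34, in HT thymi between 11.33 and 11.58, and in WT thymi between 11.69 and 12.03, so a signal was present in KO thymi too. Because Stk38 RNA does not check the label in each tumor, KO and HT below mean the tumors so labelled.

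The related kinase gene Stk38l had medians of 6.37 in KO and 6.21 in HT tumors. Its difference was -0.26 (SE 0.407, exact permutation p = 0.584), and the groups overlapped; its other probe sets differed by 0.30 and 0.24, in the opposite direction. Bcl2l11 had the same median, 12.21, in both groups, with a difference of -0.06 (SE 0.447, exact permutation p = 0.851). Its other 4 probe sets all had negative differences, down to -1.09 for the one with the largest.

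Among 20 genes of the NDR and Hippo pathway that were tested, 12 had positive and 8 had negative differences, and the median was 0.07, against 0.03 over all genes. None had an unadjusted p under 0.05. Yap1, the transcriptional coactivator restrained by LATS kinases, was between 3.29 and 3.65 in KO tumors and between 3.35 and 6.84 in HT tumors, where HT tumor 4 alone was at the top. Its difference was -0.65 (SE 0.325). Tead1, a DNA-binding partner of YAP, was between 3.51 and 10.36 in KO tumors and between 3.50 and 9.66 in HT tumors. Tead1 was at 9.47 or above in KO tumors 2, 3 and 7 and in HT tumor 7, and low in the others, with a difference of 1.70 (SE 1.48), or 2.58 without HT tumor 7. The median of the list was -0.04 without the 5 tumors of high 3' to 5' ratio, and changed sign when HT tumor 2, 5, 6 or 7 or KO tumor 1, 4 or 6 was left out.

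Baiap3, on chromosome 17, had the smallest p. The gene encodes a protein related to Munc13, a family that acts in vesicle release. In HT tumors 1 to 7 it measured 8.34, 6.47, 7.25, 9.03, 6.37, 7.67 and 9.95. In KO tumors 1 to 7 it measured 3.97, 3.92, 3.40, 3.81, 3.42, 4.80 and 6.84. KO tumors 1 to 6 lay below every HT tumor, and KO tumor 7 lay above HT tumors 2 and 5. The difference was -3.56 (SE 0.624, limma adjusted p = 0.352). The 2-sided exact permutation test gave p = 0.00175, or 0.0507 after adjustment over the 29 genes tested in this way; the smallest p that 7 against 7 tumors allow is 0.000583. WT tumors measured between 6.90 and 9.44, in the range of HT tumors. Without KO tumor 7 the difference was -4.00 with an adjusted p of 0.0218, so that KO tumor 7 ended the call in this fit. Baiap3 also passed with that tumor kept when all 31 arrays entered 1 limma fit (0.00247), and over the settings tried its adjusted p was between 0.00247 and 1. The fit of 31 arrays gave the same difference and took part of its spread from the thymi. The SD of Baiap3 was 0.19 in KO and 0.20 in HT thymi, against 1.21 and 1.32 in KO and HT tumors. Its p from that fit is thus too small for a comparison of tumors.

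Zfp763 and Zfp994, zinc finger protein genes of chromosome 17, were also among the 12 genes of smallest p in the direction of lower KO values. Zfp763 measured 4.01, 5.21 and 7.80 (lowest, median and highest) in KO tumors and 6.68, 8.09 and 9.61 in HT tumors. In all, 5 KO tumors lay below every HT tumor. Its difference was -2.49 (SE 0.650, limma adjusted p = 0.9998), while in untreated thymus it was -0.16. WT tumors resembled KO tumors here, with values between 4.52 and 7.97. A second Zfp763 probe set, of low signal, differed by -0.13. Zfp994 measured 3.65, 5.14 and 6.07 in KO tumors and 3.84, 6.69 and 8.81 in HT tumors, and HT tumor 2 alone lay within the KO range. Its difference was -1.55 (SE 0.588, limma adjusted p = 0.9998). Zinc finger genes of one cluster share sequence, and whether the probes tell them apart was not tested.

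The sequences around the starts of these 3 genes are shown because they are 3 of the 5 chromosome 17 genes among the 12 of smallest p that were lower in KO tumors, those with the largest differences. They run from 250 bases before to 50 after the start, 5' to 3' on the gene's strand, from RefSeq for GRCm38.p6. Positions are chr17:25256315-25256614 for Baiap3, chr17:33033332-33033631 for Zfp763 and chr17:22225565-22225864 for Zfp994, all on the minus strand. Capitals mark matches, on either strand, to an ETS core (CGGAAG), an E-box (CACGTG), a RUNX motif (TGTGGT) or a TATA box (TATAAA).
Baiap3: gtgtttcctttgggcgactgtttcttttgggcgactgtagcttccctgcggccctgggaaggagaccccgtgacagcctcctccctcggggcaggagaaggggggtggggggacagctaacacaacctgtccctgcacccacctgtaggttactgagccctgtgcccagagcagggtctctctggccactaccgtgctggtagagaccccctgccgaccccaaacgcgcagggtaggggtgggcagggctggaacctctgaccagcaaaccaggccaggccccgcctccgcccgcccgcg
Zfp763: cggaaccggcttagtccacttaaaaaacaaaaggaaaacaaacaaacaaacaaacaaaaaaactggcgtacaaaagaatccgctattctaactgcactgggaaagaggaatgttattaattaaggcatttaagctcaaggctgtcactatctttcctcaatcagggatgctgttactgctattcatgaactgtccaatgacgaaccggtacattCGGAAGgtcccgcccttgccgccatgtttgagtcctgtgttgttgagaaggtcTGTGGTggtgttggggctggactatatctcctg
Zfp994: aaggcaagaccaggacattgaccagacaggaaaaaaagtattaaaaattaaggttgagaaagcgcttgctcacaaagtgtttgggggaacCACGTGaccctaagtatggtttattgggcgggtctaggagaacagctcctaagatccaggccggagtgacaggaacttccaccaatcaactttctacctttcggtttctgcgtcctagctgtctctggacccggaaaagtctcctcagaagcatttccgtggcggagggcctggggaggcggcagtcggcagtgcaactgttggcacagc
The Baiap3 window had 66.3% G and C and 14 CpG, and none of the 4 motifs. The Zfp763 window, with 44% G and C and 9 CpG, held an ETS core and a RUNX motif, which 16.9% and 16.8% of 32851 mouse promoters of that length also held. The Zfp994 window, with 51.7% G and C and 11 CpG, held an E-box, found in 7.15% of promoters, and a TATA box was found in 13.6%. No motif was common to the 3 windows, and these letters alone show no site in use.

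Il10 had the third smallest p among genes lower in KO tumors. It encodes the anti-inflammatory cytokine interleukin 10 and measured 3.44, 4.14 and 5.27 in KO tumors and 3.64, 6.29 and 8.14 in HT tumors, a difference of -1.96 (SE 0.544, limma adjusted p = 0.9998). HT tumors 1, 3, 4, 5 and 6 were at 5.23 or above, as was KO tumor 4 alone among KO tumors. WT tumors, between 3.26 and 4.44, were low like KO tumors, and untreated KO and HT thymi were between 3.04 and 3.45. Zfp563, another zinc finger gene of chromosome 17, differed by -0.98 (SE 0.329). The other genes in this direction were Epn2 (an endocytic epsin), Nudt16 (a nudix hydrolase), Rps6ka5 (the kinase MSK1), 5430402O13Rik, Ino80dos, Dbndd1 and Gfer (a mitochondrial sulfhydryl oxidase), with differences from -0.92 to -0.34. Gfer has a second probe set that differed by 0.74, in the opposite direction.

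Higher in KO tumors, the smallest p was that of Cbfa2t3, a transcriptional corepressor of the ETO family. It measured 8.48, 9.96 and 11.51 in KO tumors and 7.54, 8.36 and 9.56 in HT tumors, and 6 KO tumors lay above every HT tumor. The difference was 1.46 (SE 0.424, limma adjusted p = 0.9998), against 0.01 in thymus. WT tumors, between 8.95 and 10.82, were in the range of KO tumors. The other 3 Cbfa2t3 probe sets also had positive differences, between 0.10 and 0.67. The largest difference among these genes was that of Fnbp1l, an actin-regulating F-BAR protein, at 3.01 (SE 1.05, limma adjusted p = 0.9998). Fnbp1l measured 6.01, 8.76 and 10.30 in KO tumors and 3.38, 5.46 and 7.31 in HT tumors, with 5 KO tumors above every HT tumor. Armc3, an armadillo repeat gene, measured 6.60, 7.27 and 8.37 in KO and 5.63, 6.26 and 6.74 in HT tumors, with 6 KO tumors above every HT tumor and a difference of 1.08 (SE 0.321).

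The other 9 of the 12 genes with the smallest p in this direction differed by 0.39 to 1.09. They were Usp5 (a deubiquitinase, 0.63), Wdyhv1 (an N-terminal glutamine amidase, 0.52), Dusp12 (a dual specificity phosphatase, 0.64), Ncln (an endoplasmic reticulum membrane protein, 1.09), Frat1 (a GSK3-binding protein of Wnt signalling, 0.52), Ogdh (of the tricarboxylic acid cycle, 0.51), Galnt16 (which starts mucin-type O-glycosylation, 0.39), Txn2 (mitochondrial thioredoxin, 0.56) and Ppard (a nuclear receptor, 0.85). None of the 12 passed adjustment, and a second Wdyhv1 probe set differed by -0.37. In untreated thymus the differences of these 12 genes lay between -0.27 and 0.23. The 12 were picked by their p in tumors, which favors large differences there, so smaller values on other arrays show no difference particular to tumors. A direct limma test of tumors against thymus, given below, passed for 0 of 13644 genes.

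**Figure D2:**
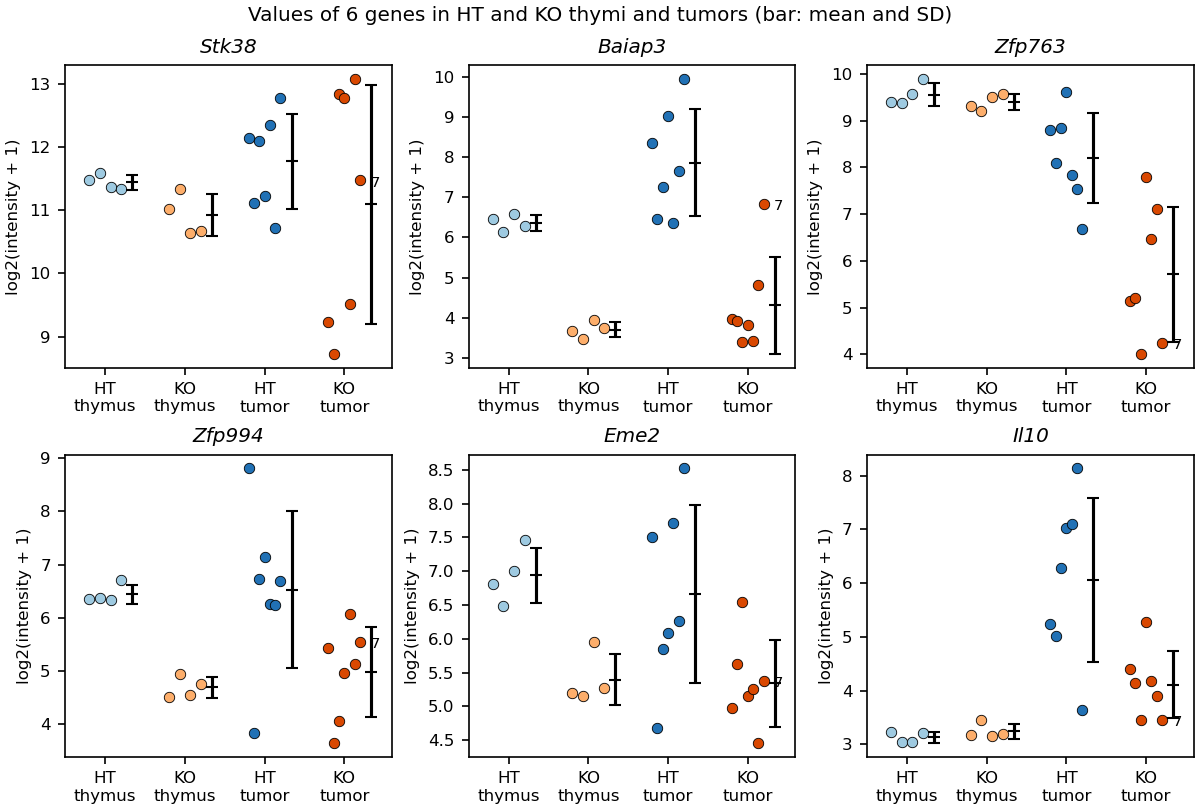
Values of Stk38, Baiap3, Zfp763, Zfp994, Eme2 and Il10, as log2(intensity + 1), in 4 HT thymi, 4 KO thymi, 7 HT tumors and 7 KO tumors, with each point 1 array, the bar the mean and SD, and KO tumor 7 marked. Baiap3 is low in KO thymi and in 6 of the KO tumors, Zfp763 and Il10 have lower means in KO than in HT tumors (adjusted p 0.9998 by limma) and overlap in thymi, and Stk38 spans 8.73 to 13.08 in KO tumors.

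Untreated thymi of the same genotypes gave a second reading of the genotype, on other arrays. Between KO and HT thymi 8 genes passed an adjusted p of 0.05 (0.0586%, limma), 2 higher in KO (0.0147%) and 6 lower (0.044%). They were Baiap3, Eme2, Zfp994, Zfp40, Anks1 and Ly6d, lower in KO thymi, and Slc49a4 and Hs3st3b1, higher. Of the 8, 7 had the same direction in tumors, and 4 had an unadjusted p under 0.05 there, all of chromosome 17: Baiap3, Zfp994, Eme2 and Zfp40. Over all genes 1.1% had such a p in tumors, and 54.5% of differences were positive. The thymus count is not firm: leaving out 1 thymus array gave between 2 and 6 genes and leaving out the sex term gave 3, and over 12 such settings Baiap3 was lost in 0, Eme2 in 1, Zfp40 in 4, Zfp994 in 7, Anks1, Slc49a4 and Hs3st3b1 in 8 each and Ly6d in 10. With the replicate number of the thymi as a block 6 of the 8 passed, and Slc49a4 (adjusted p = 0.0526 by limma) and Ly6d (0.0858) did not. The lowest count, 2, came without KO thymus F_01, without HT thymus M_02 and without HT thymus F_01.

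Eme2, a partner of the structure-specific nuclease MUS81, measured 4.46, 5.25 and 6.54 in KO tumors and 4.68, 6.27 and 8.52 in HT tumors, with overlap. Its difference was -1.32 (SE 0.60) in tumors and -1.55 in thymus, and the exact permutation p in tumors was 0.0367 (0.237 over the 29 genes). The 2 other Eme2 probe sets differed by 0.11 and -0.02. Zfp40 measured 2.61, 3.98 and 4.70 in KO tumors and 3.44, 5.15 and 7.42 in HT tumors, with a difference of -1.53 (SE 0.676) in tumors and -1.06 in thymus. Its other 3 probe sets had differences between -1.30 and -0.17. Anks1, an ankyrin repeat adaptor, differed by -1.12 in thymus and by -0.34 (SE 0.631) in tumors, where the groups overlapped. Slc49a4, a membrane transporter gene of chromosome 16, differed by 0.97 in thymus and by 0.88 (SE 0.529) in tumors. Hs3st3b1, a heparan sulfate sulfotransferase gene, differed by 0.83 in thymus and 0.17 in tumors, and Ly6d, a surface protein gene, by -0.60 and 0.40.

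KO and WT thymi differed in 26 genes at an adjusted p under 0.05 (0.191%). This comparison uses the KO thymi of the one above, so the lists are not independent. Besides Stk38, 15 of the 26 were on chromosome 17, and 12 of these had the same direction in KO against HT tumors, 5 with an unadjusted p under 0.05, against 1.1% of all genes and 2.18% of those on chromosome 17. Of the 10 on other chromosomes, 7 had the same direction and 0 an unadjusted p under 0.05. The share of all genes with the same direction in thymus and tumors was not worked out. The counts of direction, here and for the KO against HT thymus genes, thus have no base to be judged by. The chromosome 17 genes of this comparison not yet described were Gnptg, Zfp52, Zfp943, Tsr3 and Spsb3, with tumor differences of -0.69, -0.62, -0.40, -0.20 and -0.20, followed by Zfp760, Cramp1l, Pdpk1 and Zfp945, with 0.29, 0.04, -0.02 and -0.18. The other 2 Zfp945 probe sets differed by -2.15 and 0.53, so this gene has no single direction in tumors. Cramp1l, Pdpk1 and Zfp945 were the 3 whose direction in tumors was opposite to that in KO against WT thymi.

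**Figure D3:**
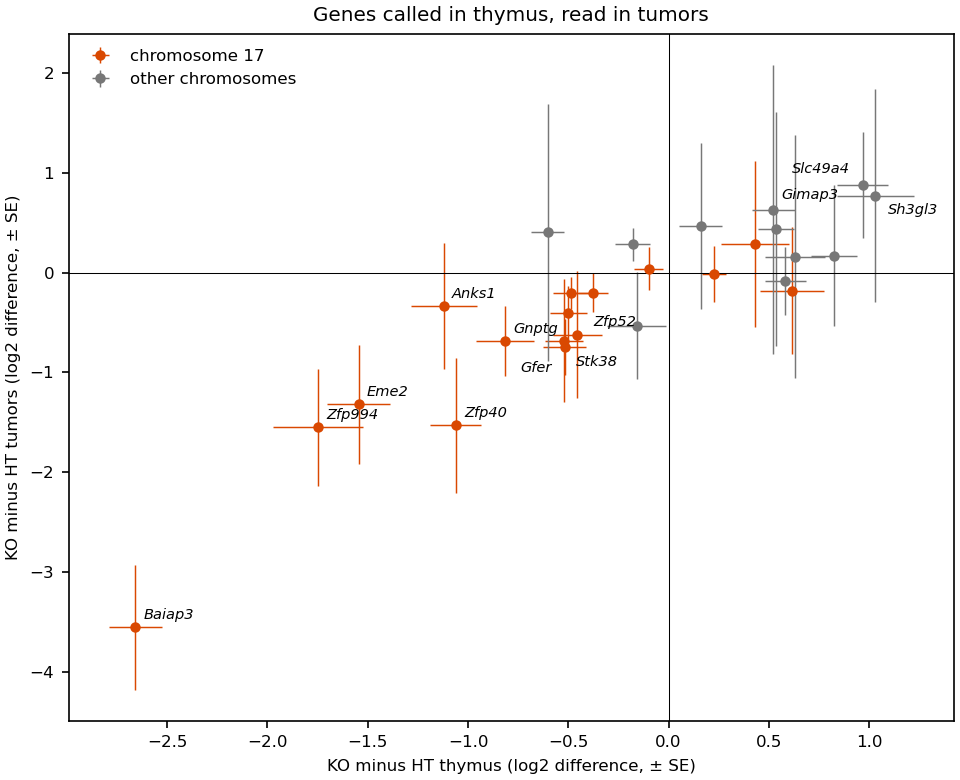
Difference between KO and HT (log2, with SE) in thymus on the horizontal axis and in tumors on the vertical axis, for the genes past an adjusted p of 0.05 in KO against HT or KO against WT thymi, with chromosome 17 in orange. Chromosome 17 genes lower in KO thymi lie mostly in the lower left, from Baiap3 at -2.66 and -3.56 to genes near 0, and genes of other chromosomes lie on both sides of 0 in tumors.

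Stk38 itself lies on chromosome 17. Of 688 genes tested on that chromosome 15 had an unadjusted p under 0.05 in tumors (2.18%, against 1.1% over all genes), 10 lower and 5 higher in KO. By gene order, 9 of 214 genes placed before Stk38 and 6 of 431 placed after it were among the 15. Hspa1b, a heat shock protein gene of chromosome 17, was among the 5 that were higher.

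The contrast between tumors and thymus was tested directly. The KO minus HT difference in tumors minus that in thymus passed an adjusted p of 0.05 for 0 of 13644 genes (0%, limma on all 31 arrays), with 62 genes (0.454%) at an unadjusted p under 0.05. The smallest p, 0.00109, was that of Klhl4, a Kelch family gene, at 1.22 (SE 0.331). Baiap3 had -2.66 in thymus and -3.56 in tumors.

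Stages of T cell development were read from marker lists. Cd3e, a chain of the T cell receptor complex, was at 11.29 or above in every KO tumor and 11.96 or above in every HT tumor, so T lineage RNA was present in all 14. Of 11 genes of the double-positive stage, when thymocytes carry both CD4 and CD8 and rearrange the receptor alpha chain, 10 had lower means in KO tumors and 1 a higher mean, with a median of -0.93 against 0.03 over all genes. None of the 11 had an unadjusted p under 0.05. Rag1, a subunit of the V(D)J recombinase, measured 4.57, 11.49 and 14.37 in KO tumors and 11.38, 12.42 and 14.31 in HT tumors, a difference of -2.16 (SE 1.16). Rag2 differed by -2.11 (SE 1.11), Arpp21, an RNA-binding phosphoprotein gene, by -1.85 and Cd8b1, a CD8 chain, by -0.93.

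The low end of the double-positive list came from KO tumors 4 and 6. Their list means were 8.27 and 9.24, while the other 5 KO tumors were at 10.77 or above and the 7 HT tumors between 10.92 and 12.34; the 12 untreated thymi of all genotypes were between 13.29 and 13.48. These were the KO tumors rich in B cell markers, whose part in the difference was not tested. HT tumors 1 and 3, also rich in B cell markers, had double-positive means of 11.22 and 10.92. Without those 4 tumors 9 of 11 genes still had lower means in KO, with a median of -0.49, and the median stayed negative, between -1.27 and -0.55, when any single tumor was left out.

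Markers of earlier and later stages leaned the other way. Of 12 genes of early progenitors and the double-negative stage 9 had higher means in KO tumors (median 0.36), and of 14 genes of single-positive and mature T cells 12 did (median 0.41). Both medians turned negative, to -0.09 and -0.22, without the 5 tumors of 3' to 5' ratio above 1.5, and each turned negative when KO tumor 4 or KO tumor 6 alone was left out. Leaving out HT tumor 2 or HT tumor 6 also turned the early list. The early list mean was 8.69 and 8.20 in HT tumors 1 and 3 and 8.78 and 8.66 in KO tumors 4 and 6. These tumors were rich in B cell markers, and in the others the mean was between 5.72 and 7.25. The part of other cells in these lists was not tested. Il2ra, the CD25 chain that marks double-negative thymocytes, went against its list, at 4.40, 6.71 and 11.46 in KO and 5.75, 8.04 and 12.19 in HT tumors (difference -1.54, SE 1.35). Ptcra (-1.06, SE 1.39) and Erg (-0.10, SE 0.130), of the same list, also had lower means in KO tumors. Levels of Kit, a progenitor receptor, overlapped widely, between 4.17 and 9.92 in KO and between 4.34 and 8.83 in HT tumors.

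No gene of T cell identity passed the test. Of 14 genes of the T cell receptor complex and its first signalling steps 10 had lower means in KO tumors, with a median of -0.14, and Cd3e differed by -0.37 (SE 0.241). Transcription factors of the T lineage split evenly, 7 positive and 7 negative, with a median of 0.03. Without the 4 tumors rich in B cell markers 11 were positive (median 0.12), and without the 5 tumors of high 3' to 5' ratio 6 were (median -0.07). Zbtb7b, which directs CD4 commitment, had a difference of 1.24 (SE 0.643) and Myb, needed in double-positive thymocytes, -0.71 (SE 0.496).

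Notch signalling is often activated in mouse thymic lymphoma. The mean RNA level of a list of Notch receptors, ligands, modifiers and targets was between 8.09 and 9.28 in KO and between 8.12 and 9.49 in HT tumors, above the 7.47 to 7.89 of untreated thymi. Of 13 genes tested 5 had positive and 8 negative differences, with a median of -0.04, which was between -0.11 and 0.03 when single tumors were left out. Notch1 had medians of 13.50 in KO and 13.93 in HT tumors, and its target Dtx1 12.52 and 13.06. Jag1, a Notch ligand, differed by -0.72 (SE 0.616) because of HT tumor 7, at 8.77, while the next HT tumor was at 5.41. Of 8 leukemia oncogenes tested 5 had positive differences (median 0.28), and of 9 tumor suppressors 3 had (median -0.04). The oncogene median was -0.15 without the 5 tumors of high 3' to 5' ratio and -0.04 without KO tumor 4 or KO tumor 6 alone, and the suppressor median was 0.03 without the 4 tumors rich in B cell markers. Myc had medians of 11.20 in KO and 10.44 in HT tumors, and Lyl1 9.48 and 8.52, with overlapping ranges.

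**Figure D4:**
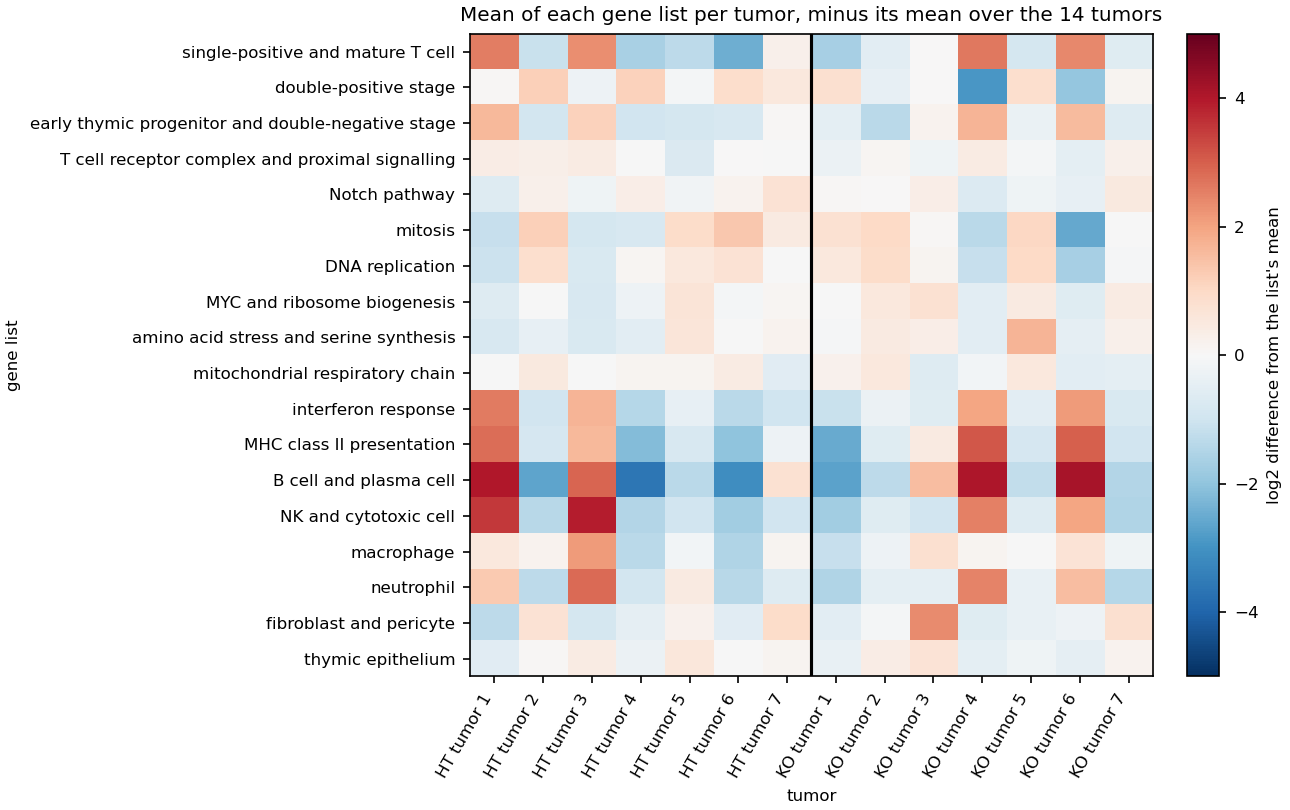
Mean log2 value of 18 gene lists in each tumor, minus the mean of that list over the 14 tumors, with HT tumors left of the black line and KO tumors right of it. HT tumors 1 and 3 and KO tumors 4 and 6 share high B cell, mature T cell, interferon and MHC class II lists, while the double-positive list is lowest in KO tumors 4 and 6.

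Cell death genes gave small differences. Of 9 pro-apoptotic BCL2 family genes 6 had higher means in KO tumors, with a median of 0.16. Bak1, an effector of mitochondrial pore formation that lies on chromosome 17, measured 8.76, 9.32 and 10.03 in KO and 7.80, 8.46 and 10.66 in HT tumors (difference 0.76, SE 0.402). Bbc3, the p53 target PUMA, differed by 0.74 (SE 0.403) and Bok by 0.50. The 4 anti-apoptotic genes split 2 and 2, with a median of 0.05 that was -0.26 without the 5 tumors of high 3' to 5' ratio, and Bcl2 differed by 0.27 (SE 0.688), with a turn to -0.38 without the 5 tumors of high 3' to 5' ratio and to -0.37 without HT tumor 5. Of 10 caspase and death receptor genes 3 had positive differences (median -0.02), and of 13 p53 targets 6 had (median -0.04). The p53 median was 0.39 without the 4 tumors rich in B cell markers, 0.28 without HT tumor 3, 0.18 without KO tumor 7 and 0.05 without KO tumor 5. The caspase median was 0.03 without the 4 tumors rich in B cell markers and 0.003 without the 5 of high ratio. Mgmt, which removes alkyl groups of the kind ENU leaves on guanine, measured 3.67, 4.68 and 6.45 in KO and 4.11, 4.84 and 6.31 in HT tumors. Of 11 repair genes 9 had positive differences (median 0.06), and Alkbh2, another alkylation repair enzyme, differed by 0.67 (SE 0.358).

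The direction of the proliferation lists depended on which tumors were included. Of 19 mitosis genes 18 had lower means in KO tumors, with a median of -0.31. Without the 5 tumors of 3' to 5' ratio above 1.5 all 19 had higher means in KO tumors, with a median of 0.34. KO tumor 6, with a list mean of 7.78, was the lowest of the 14, and without it alone the median was 0.06. With the ratio as a covariate 18 of 19 stayed lower, with a median of -0.29. Cdk1, the mitotic kinase, differed by -0.63 (SE 0.633) and by 0.19 without those 5 tumors, and Tpx2, a spindle assembly factor, by -0.58 and 0.53. Of 19 DNA replication genes 7 had positive differences with a median of -0.08, and 16 had with a median of 0.27 without those tumors. The replication median was -0.06 with the ratio as a covariate, 0.10 without the 4 tumors rich in B cell markers, and positive when HT tumor 2, HT tumor 6, KO tumor 4 or KO tumor 6 was left out. Pcna, the replication clamp, differed by -0.40 and -0.09. Mitosis list means were between 7.78 and 11.38 in KO, between 9.21 and 11.72 in HT tumors and between 11.07 and 11.50 in untreated thymi.

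The MYC and amino acid lists kept a positive median under every setting tried, as did others, among them the glycolysis, heat shock and B cell lists. Of 19 genes of MYC activity and ribosome biogenesis 15 had higher means in KO tumors, with a median of 0.28, and all 19 had without the 5 tumors of high 3' to 5' ratio (median 0.40). Polr1b, a subunit of RNA polymerase I, differed by 0.69 (SE 0.387), Rrp12 by 0.65 and Bop1 by 0.44. Of 13 genes of amino acid stress and serine synthesis 12 had higher means in KO tumors, with a median of 0.62, the highest of the 26 gene lists. Slc7a5, a transporter of large neutral amino acids, measured 8.81, 10.35 and 10.90 in KO and 8.47, 9.04 and 10.53 in HT tumors (difference 0.83, SE 0.402). Shmt2, the mitochondrial serine hydroxymethyltransferase, differed by 0.70 (SE 0.366), Atf4, the transcription factor of this response, by 0.55 and Ddit3 by 0.62. The list mean was 10.50 in KO tumor 5, above the 9.24 of the next tumor of its group, and leaving out single tumors moved the median between 0.16 and 0.74. No gene of these lists had an unadjusted p under 0.05.

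Of 13 glycolysis genes 9 had higher means in KO tumors (median 0.13), among them Hk2, hexokinase 2, with a difference of 0.60 (SE 0.298). Hk2 measured 8.10, 8.39 and 8.85 in HT tumors, and 5 KO tumors lay above that range and 2 below it. Pfkl differed by 0.68 and the glucose transporter Slc2a1 by 0.37. All 15 respiratory chain genes tested had lower means in KO tumors, but by little, with a median of -0.14. Without the 5 tumors of high 3' to 5' ratio 3 of the 15 were lower and the median was 0.04, while with the ratio as a covariate 14 of the 15 stayed lower and the median was -0.14. Sdhb, a subunit of complex II, differed by -0.29 (SE 0.286) and by -0.01 without them, and Ndufs1, of complex I, by -0.16 and 0.03.

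Over all 38 lists, Hspa1b, Il10 and Epcam were the only 3 members with an unadjusted p under 0.05. They were 1 of 12 heat shock genes, 1 of 13 cytokine and activation genes and 1 of 11 thymic epithelium genes tested. Over all genes 1.1% had such a p (150 of 13644), and these 3 are not read as a result of their lists. Hspa1b, an inducible HSP70, measured 6.66, 7.23 and 10.77 in KO and 5.35, 5.94 and 8.12 in HT tumors, a difference of 1.63 (SE 0.612, limma adjusted p = 0.9998). KO tumors 1 and 6, at 9.63 and 10.77, lay above every HT tumor. Bag3, an HSP70 cochaperone, differed by 0.81 (SE 0.396), Hspa1a by 0.52 and Hspb1 by 0.47, and 8 of the 12 genes tested had positive differences (median 0.14). Hspa1a and Hspa1b are near-identical copies, which probes may not tell apart. Of 14 immediate early genes 10 had positive differences (median 0.21), and of 12 NF-kappaB genes 8 had (median 0.22); both medians turned negative without the 5 tumors of high 3' to 5' ratio, at -0.32 and -0.18, and when KO tumor 4 or KO tumor 6 was left out, the first also without HT tumor 2.

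Among cytokines and activation genes Il10 was the 1 of 13 with an unadjusted p under 0.05, and the list had 5 positive differences with a median of -0.11, which was 0.09 without the 4 tumors rich in B cell markers. Of 15 interferon response genes 11 had higher means in KO tumors (median 0.32), for example Bst2, an antiviral membrane protein, at 0.68 (SE 0.680). All 9 MHC class II genes tested had higher means in KO tumors, with a median of 0.42. Ciita, the master regulator of MHC class II genes, measured 3.65, 5.01 and 10.74 in KO and 3.28, 4.38 and 7.22 in HT tumors (difference 1.72, SE 0.978), and Cd74, the invariant chain, differed by 0.58 (SE 0.899). Without the 5 tumors of high 3' to 5' ratio 2 of the 9 were positive with a median of -0.16, Cd74 was at -0.11, and the interferon median was -0.12. Leaving out KO tumor 4 or KO tumor 6 alone also turned both medians negative.

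Other cell types were read in the same way. All 13 B cell and plasma cell genes tested had higher means in KO tumors, with a median of 0.86, and the list mean was between 6.16 and 12.97 in KO tumors, between 5.24 and 12.85 in HT tumors and between 6.27 and 7.82 in untreated thymi. HT tumors 1 and 3 and KO tumors 4 and 6 were at the top, so the groups overlapped throughout. Cd79b, a signalling chain of the B cell receptor, measured 7.66, 8.97 and 13.84 in KO and 4.96, 6.97 and 14.05 in HT tumors (difference 1.51, SE 1.36), Ms4a1 (CD20) differed by 1.22 and Jchain by 1.01. The median was 1.02 without the 4 tumors richest in these markers and 0.38 without the 5 tumors of high 3' to 5' ratio, and no B cell gene had an unadjusted p under 0.05.

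The same tumors that were rich in B cell markers had the highest means of 12 NK and cytotoxic cell genes, 10.04 and 10.41 in HT tumors 1 and 3 and 9.01 and 8.47 in KO tumors 4 and 6, with the others at 5.90 or below. In that list 4 genes had positive differences (median -0.30). Without those 4 tumors 9 of 12 were positive with a median of 0.29, and the median was 0.19, 0.26 and 0.04 without HT tumor 1, HT tumor 3 and KO tumor 1 alone. Prf1, perforin, measured 3.37, 5.07 and 7.16 in KO and 3.48, 6.74 and 8.96 in HT tumors. Of 13 macrophage genes 8 had positive differences (median 0.09); C1qa differed by 0.78 and Fcgr3 by -0.62. The macrophage median has no firm sign: it was -0.34, with 10 of 13 negative, without the 5 tumors of high 3' to 5' ratio, and negative when HT tumor 4, 5, 6 or 7 or KO tumor 2, 3, 4 or 6 was left out, down to -0.30 without HT tumor 6. Of 10 neutrophil genes 4 had (median -0.04), and Mmp9, a neutrophil gelatinase, differed by -1.71 (SE 0.819), at 4.77, 5.44 and 7.42 in KO and 4.29, 7.75 and 11.32 in HT tumors. Dendritic cell genes (2 of 6 positive, median -0.18), erythroid genes (2 of 4, median 0.05), adipocyte genes (2 of 3, median 0.18) and striated muscle genes (3 of 4, median 0.20) were few. The neutrophil and dendritic medians have no firm sign. The dendritic median turned positive, up to 0.03, without HT tumor 1 or 3 or KO tumor 1, 3 or 5. The neutrophil median was 0.03 without the 4 tumors rich in B cell markers. It was also positive without HT tumor 1, 3 or 5 or KO tumor 1, 3, 5 or 7, up to 0.43 without HT tumor 3. The erythroid median was -0.36 without the 5 tumors of high 3' to 5' ratio, and negative without HT tumor 6, KO tumor 6 or KO tumor 7. The adipocyte median was -0.09 without KO tumor 3. Fabp4, an adipocyte fatty acid binding protein also made by macrophages and endothelium, had the largest difference of those, 1.85 (SE 1.04).

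Of the stromal lists, that of thymic epithelium was lower in most tumors than in every untreated thymus. Of 11 thymic epithelium genes 7 had positive differences (median 0.18), and the list mean was between 4.39 and 5.63 in the 14 tumors, against 5.26 to 8.51 in untreated thymi. Epcam, an epithelial adhesion protein gene of chromosome 17, went against its list, at 5.45, 6.68 and 9.11 in KO and 7.14, 8.87 and 11.68 in HT tumors, a difference of -2.17 (SE 0.883, limma adjusted p = 0.9998). As the mean of its probe sets Epcam differed by -1.17. WT tumors had Epcam values between 4.15 and 8.87. Of 13 fibroblast and pericyte genes 11 had positive differences (median 0.31); KO tumor 3, with a list mean of 7.95, was the highest of the 14, and without it the median was -0.06. Col1a2, a collagen chain, differed by 2.17 (SE 1.15) and Postn, periostin, by 1.10. Of 7 endothelial genes 6 had positive differences (median 0.35), with Eng at 0.89 and Plvap at 0.76.

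**Figure D5:**
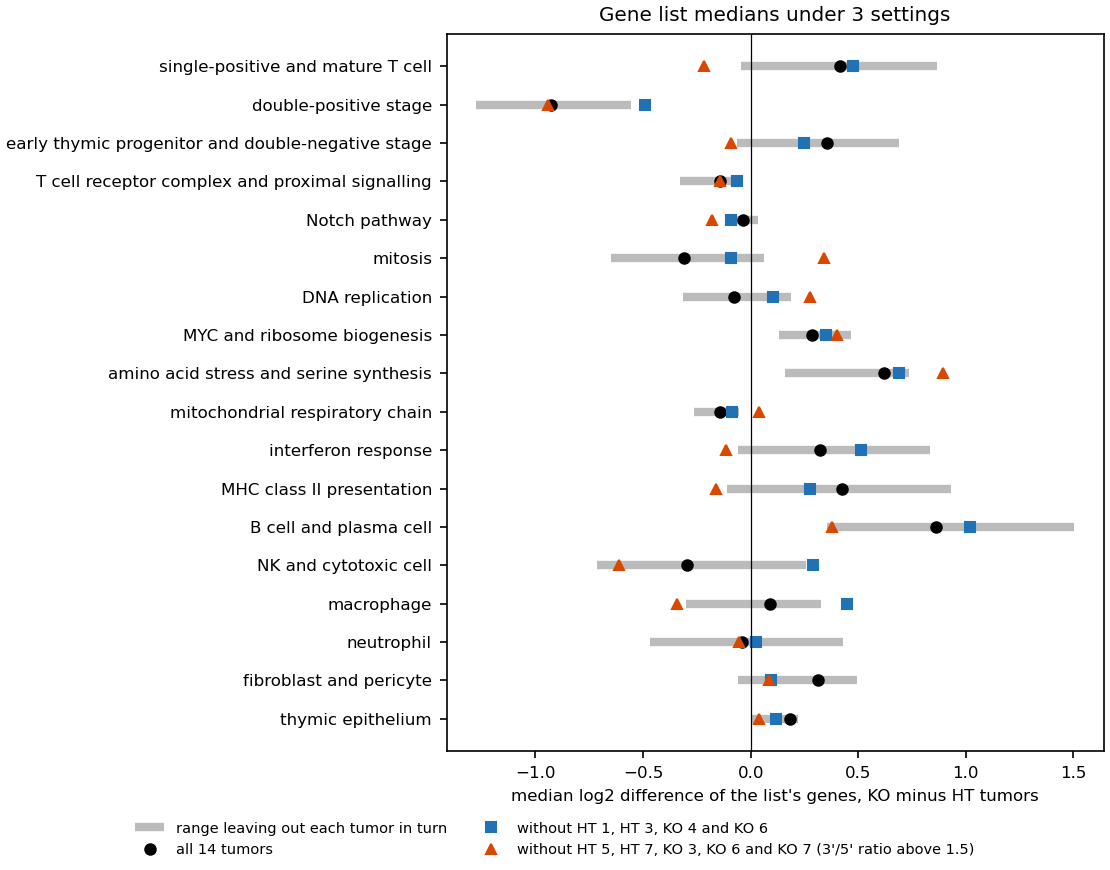
Median difference (log2, KO minus HT tumors) of the genes of 18 lists with all 14 tumors (black), without the 4 tumors rich in B cell markers (blue), without the 5 tumors of 3' to 5' ratio above 1.5 (orange), and its range when each tumor is left out in turn (grey). The double-positive and T cell receptor lists stay below 0 in all of these. The MYC and ribosome biogenesis, amino acid stress, B cell and thymic epithelium lists stay above 0, the last by little, while the mitosis list moves from -0.31 to 0.34.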

How the data were processed

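RNA of the tumors and thymi was measured on 1-colour Affymetrix arrays, and the deposited table holds linear intensities that the authors made with GCRMA, per the submitters' processing notes; the sources used here do not give its version. GCRMA corrects background and quantile normalizes, and the median intensity was 20.0 on every array. Of 45101 probe sets, 34944 name 1 gene and 932 name several and were left out, which gave 18192 genes. The probe set with the highest mean over all arrays stood for a gene. Values were taken as log2(intensity + 1), and a gene was tested where its mean over the arrays exceeded 3.65, the 25th percentile of all genes, which left 13644 genes (75%). A fold on this scale understates the change of low genes.

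KO was compared with HT in limma 3.58.1 (R 4.3.3) with sex as a covariate and Benjamini-Hochberg adjustment; WT tumors entered this fit only to estimate the spread. Thymi were fitted separately, and the difference between tumors and thymus was fitted on all 31 arrays. Single genes were also tested by 2-sided exact permutation. The steps were tested on simulated data. Named genes are Stk38, Stk38l, Bcl2l11, the 12 smallest p in each direction, the genes past the threshold in thymus and up to 5 members of each list by smallest p, with fixed markers. Members and lists were chosen with earlier results of these data known. Replicate numbers of the thymi give sex and a number, and the titles state no pairing. Deviations of same-numbered thymi correlated (0.441, 0.564, 0.513 and 0.515), but such thymi also share sex, so these values do not settle whether they were paired. The number was used as a block in 1 alternative only. Alternatives changed the pseudocount, filter, normalization, covariates, probe set rule and arrays included. Gene names are those of the platform annotation, of which 99.4% of single-gene probe sets matched RefSeq.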

Additional observations from a re-analysis of the deposited data

Results flagged for a closer look

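In the lists of values below, 1 sample stood apart from the other 6 of its group, as judged by Dixon's test. KO tumor 7 had the highest Baiap3 value of its group, 6.842, with the next at 4.805. HT tumor 5 was high in Bak1, an apoptosis effector, at 10.66 (next 8.541), and low in the apoptosis inhibitor Bcl2, at 6.584 (next 9.659). HT tumor 7 was high in the Notch ligand Jag1 at 8.771 (next 5.41) and in Tead1 at 9.658 (next 4.364), and its 3' to 5' ratio of 4.873 was also apart (next 2.059).

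HT tumor 4 was high in Yap1 at 6.844 (next 4.784) and in Ino80dos at 5.404 (next 4.656). HT tumor 6 was low in Ly6d at 4.482 (next 9.973). HT tumor 1 was high in Ogdh at 10.76 (next 10.25), and HT tumor 3 in the kinase gene Rps6ka5 at 11.35 (next 9.536). KO tumor 3 was high in Hspb1, a small heat shock protein, at 6.29 (next 4.61), and in Rrp12 at 9.344 (next 8.058), and low in Zfp760 at 4.974 (next 8.685). In all, 14 of 192 groups of 7 were apart by this measure, and chance alone marks about 1 in 20.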

How the results depend on the processing

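With no filter on low values 289 genes had an unadjusted p under 0.05 between KO and HT tumors, with a filter at the 50th percentile 74, with all 31 arrays in the fit 464, with the 3' to 5' ratio as a covariate 238, with array weights 288 and with every single-gene probe set tested 248. Leaving out 1 tumor gave between 121 and 305 genes, among them 260 without HT tumor 5, 229 without HT tumor 7, 305 without KO tumor 1 and 271 without KO tumor 5. The count past an adjusted p of 0.05, 0 as reported, was 1, Baiap3, with all 31 arrays, with the replicate number as a block and without KO tumor 7, and between 0 and 1 when single tumors were left out. The fit of all 31 arrays took part of its spread from the thymi, where Baiap3 varied less than in tumors. The replicate numbers of the tumors do not pair them, and with the block 90 genes had an unadjusted p under 0.05. In thymus 3 genes passed without the sex term and between 2 and 6 when 1 thymus was left out. With the replicate number of the thymi as a block 8 genes passed, of which 6 were among the 8 reported. Slc49a4 and Ly6d were lost.

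Of 2706 values for 94 genes 2662 kept their direction and side of the threshold. Several settings could not turn a direction, because they gave each gene the same difference as the main fit. These were all 31 arrays, only the KO and HT tumor arrays, no sex term, the replicate block and the other filters. A spread fitted by intensity also left the differences the same. The count of values kept thus overstates how firm the directions are. Bcl2l11 turned to 0.0191 in females alone and 0.18 without the 4 tumors rich in B cell markers, Pdpk1 to 0.0418, 0.15 and, as the mean of its probe sets, 0.22, and Stk38l to 0.0928 as such a mean. Such means also changed the size of differences that kept their direction. Epcam moved from -2.17 to -1.17, Jag1 from -0.72 to -0.14 and Prf1 from -1.24 to -0.66. Atf4 moved from 0.55 to 0.26 and Bak1 from 0.76 to 0.31, whereas Ms4a1 grew from 1.22 to 1.41. Cramp1l turned to -0.0293 with array weights, -0.0763 without the tumors rich in B cell markers and -0.27 without those of 3' to 5' ratio above 1.5. Without the latter, a choice made after seeing the data, Zfp760 was -0.0104, Cdk1 0.19, Tpx2 0.53, Cd74 -0.11, Bcl2 -0.38 and Ndufs1 0.0308. When single tumors were left out, the ranges that crossed 0 were -0.44 to 0.0502 for Stk38l, -0.28 to 0.16 for Bcl2l11, -0.57 to 1.25 for Ly6d, -0.59 to 0.0137 for Anks1, -0.26 to 0.62 for Hs3st3b1, -0.17 to 0.11 for Pdpk1, -0.11 to 0.16 for Cramp1l, -0.32 to 0.89 for Zfp760, -0.64 to 0.22 for Zfp945 and -0.37 to 0.54 for Bcl2. The cause of these turns was not tested. Leaving out HT tumor 4 or KO tumor 2 gives the fit of females alone, since the sex term takes up the remaining male. With 7 arrays a group, their number limits what a difference can show.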
